A study of Mus musculus with 15 samples.

Results

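The mouse miR-23/27/24 miRNAs are made from a pair of paralog clusters, an a cluster with Mir23a, Mir27a and Mir24-2, and a b cluster with Mir23b, Mir27b and Mir24-1. Their arms were chosen by name and not by a measured value, though with earlier results of these data known. Members were 9 of the 696 mouse miRNAs on the array. Of these, 5 were guide arms (mmu-miR-23a-3p, mmu-miR-23b-3p, mmu-miR-24-3p, mmu-miR-27a-3p and mmu-miR-27b-3p, written below without the species prefix), the arm of the hairpin that is mainly loaded into the silencing complex. The other 4 were the opposite arms miR-24-1-5p, miR-24-2-5p, miR-27a-5p and miR-27b-5p. The opposite arms of miR-23a and miR-23b were not analysed here.

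miRNA levels were measured with 1 Agilent array per mouse in the livers of 15 male B6C57/J mice, 5 in each diet group. All groups ate AIN-93G diet, with the diets begun when the mice were one year old and kept up for the rest of their lives. SD mice ate the standard diet ad libitum, CR mice were on a caloric restriction of 40%, and Met mice ate the standard diet ad libitum with 0.1% metformin by weight. Metformin is an oral glucose-lowering drug and CR is an intervention that extends lifespan in mice, and the comparison of both with SD asked how they changed hepatic miRNAs. The number of miRNAs detected per array was 170 to 205 in SD, 151 to 198 in CR and 182 to 191 in Met, and the lowest counts in CR were from mouse 3, with 151, and mouse 2, with 167. The arrays lay on 2 slides. Slide 1 held the 5 SD arrays and Met arrays 1, 2 and 3, and slide 2 held the 5 CR arrays and Met arrays 4 and 5. No slide held both SD and CR arrays. miR-122-5p, which defines hepatocytes, was detected on 15 of 15 arrays.

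A miRNA cluster is transcribed as 1 primary transcript, which the nuclease DROSHA cuts into hairpins and DICER1 cuts into mature miRNAs. A miRNA recognizes its target mRNAs mainly through its seed, bases 2 to 8. The miR-23/27/24 clusters are expressed in many tissues, with known roles in endothelial cells and angiogenesis. miR-27 is known to repress Pparg and other regulators of lipid metabolism and adipocyte differentiation, miR-23a to repress the mitochondrial glutaminase, and miR-24 to repress cell cycle genes.

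The mature sequences show how close the paralogs are, and which of them an array must tell apart. They are RefSeq sequences on build GRCm38.p6, where 8 of the 9 members had an entry (all but miR-23b-3p), and the capitals mark the seed. The guide arms with an entry, from the a cluster on chromosome 8 and the b cluster on chromosome 13, were:
miR-23a-3p (chr8:84208563-84208583, plus strand): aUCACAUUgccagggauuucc
miR-27a-3p (chr8:84208727-84208747, plus strand): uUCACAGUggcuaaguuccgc
miR-27b-3p (chr13:63300760-63300780, plus strand): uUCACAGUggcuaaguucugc
miR-24-3p (chr8:84208875-84208896 and chr13:63301251-63301272, plus strand): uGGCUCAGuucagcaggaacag

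miR-27a-3p and miR-27b-3p had the same seed and shared 20 of 21 bases. Their single difference was C19U, counted from 1 at the 5′ end of miR-27a-3p. miR-24-3p had the same sequence at both loci, so its signal could not be assigned to a cluster. The seeds of miR-23a-3p and miR-27a-3p matched at 6 of 7 positions. Probe sequences were not used here, and how much of the signal the miR-27a and miR-27b probes share was not tested.

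The opposite arms of the miR-24 hairpins, which do differ between the clusters, are shown because they would tell the 2 loci apart. Both had the same seed:
miR-24-2-5p (chr8:84208839-84208860, plus strand): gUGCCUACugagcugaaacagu
miR-24-1-5p (chr13:63301213-63301235, plus strand): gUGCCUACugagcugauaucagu

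The hairpins of the a cluster spanned 404 bases (chr8:84208518-84208921) and overlapped no protein-coding gene of the RefSeq table. Those of the b cluster spanned 792 bases (chr13:63300484-63301275) inside the protein-coding gene Aopep, which encodes an aminopeptidase. Both clusters lay on the plus strand.

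The guide arms of both clusters were expressed in the liver of every mouse, while the opposite arms were not detected. These are values of bulk liver, in which fewer cells of a type and less RNA per cell cannot be told apart. All 5 guide arms were detected on 15 of 15 arrays, and 100% of their spots were well above background. The 4 opposite arms were detected on 0 of 15 arrays and so were not tested. Their mean z-scores by diet were between -0.348 and -0.271. Beside them, the median z-score of all undetected miRNAs of an array was between -0.338 and -0.272.

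Levels are given as z-scores, the natural log of the spot signal minus the mean of that log over all spots of the array, divided by its SD. Since probes differ in brightness, each miRNA is compared with itself across diets and not with another miRNA.

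In every guide arm the order of the diet means was Met, SD, CR, from high to low, but the ranges of neighbors in that order overlapped and no pair of neighbors met the criteria described below. The CR mice spread most widely for each guide arm. This order depends on how the arrays were scaled, as described with the comparisons of CR.

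For mmu-miR-23a-3p of the a cluster, z-scores were 1.14, 1.20, 1.28, 1.1 and 1.34 in SD mice 1 to 5. They were 1.34, 0.939, 0.947, 1.05 and 1.58 in CR mice 1 to 5, and 1.29, 1.30, 1.31, 1.46 and 1.42 in Met mice 1 to 5. CR mouse 5 had the highest value of all 15 and CR mice 2, 3 and 4 the lowest, and the groups overlapped. The means were 1.21 ± 0.0997 in SD, 1.17 ± 0.281 in CR and 1.35 ± 0.0801 in Met (SD, n = 5).

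For mmu-miR-27a-3p, the second guide arm of the a cluster, z-scores were 0.548, 0.614, 0.660, 0.513 and 0.678 in SD mice 1 to 5. They were 0.690, 0.404, 0.338, 0.484 and 0.863 in CR mice and 0.621, 0.653, 0.667, 0.794 and 0.810 in Met mice. The same CR mice were high and low as for miR-23a-3p, and in both miRNAs the 2 Met arrays of slide 2 were above the 3 Met arrays of slide 1. The means were 0.603 ± 0.0710 in SD, 0.556 ± 0.217 in CR and 0.709 ± 0.0866 in Met (SD, n = 5).

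For mmu-miR-23b-3p of the b cluster, z-scores were 1.41, 1.5, 1.64, 1.46 and 1.63 in SD mice 1 to 5. They were 1.61, 1.34, 1.23, 1.39 and 1.62 in CR mice and 1.56, 1.57, 1.64, 1.58 and 1.68 in Met mice. CR mice 2, 3 and 4 were below every SD and Met mouse, while CR mice 1 and 5 were among the SD and Met values. The means were 1.53 ± 0.102 in SD, 1.44 ± 0.172 in CR and 1.61 ± 0.0525 in Met (SD, n = 5).

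For mmu-miR-27b-3p, the paralog of miR-27a-3p, z-scores were 0.742, 0.813, 0.960, 0.792 and 0.923 in SD mice 1 to 5. They were 0.831, 0.534, 0.393, 0.612 and 0.805 in CR mice and 0.825, 0.806, 0.921, 0.794 and 0.952 in Met mice. Again CR mice 2, 3 and 4 were below every SD and Met mouse, but here CR mouse 5 was not high. The means were 0.846 ± 0.0919 in SD, 0.635 ± 0.185 in CR and 0.860 ± 0.0718 in Met (SD, n = 5).

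For mmu-miR-24-3p, which both clusters encode, z-scores were 1.32, 1.40, 1.51, 1.33 and 1.53 in SD mice 1 to 5. They were 1.53, 1.28, 1.09, 1.28 and 1.62 in CR mice and 1.47, 1.43, 1.49, 1.55 and 1.60 in Met mice. CR mouse 5 was highest of all and CR mice 2, 3 and 4 lowest. The means were 1.42 ± 0.0966 in SD, 1.36 ± 0.214 in CR and 1.51 ± 0.0679 in Met (SD, n = 5).

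**Figure D1:**
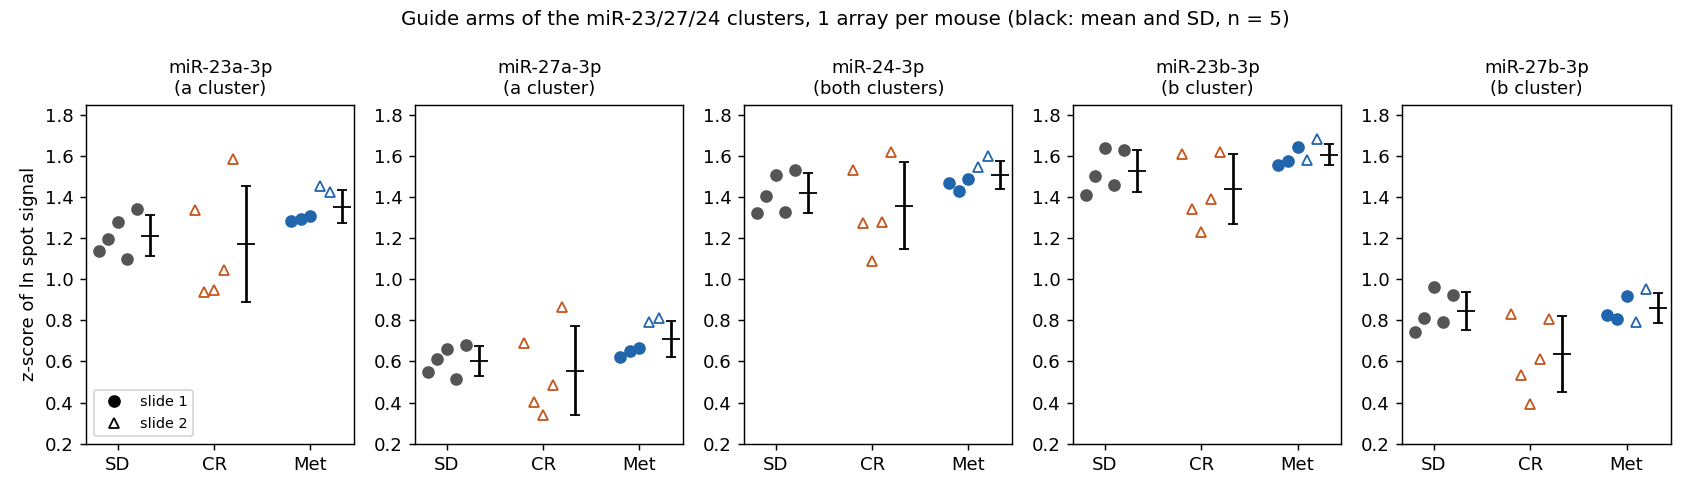
z-scores of the natural log of spot signal (y axis) of the 5 guide arms in SD, CR and Met livers (x axis), with 1 point per mouse and the mean and SD of 5 mice in black. Filled circles are arrays of slide 1 and open triangles arrays of slide 2. CR mice 2, 3 and 4 lie below the other CR mice in each panel.

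Met and SD were compared to ask whether metformin moved the clusters. In Met livers the mean z-score of all 5 guide arms was the higher one, but none met the criteria of the study, p of 0.05 or less, adjusted p of 0.3 or less, and a Z ratio of at least 1.5 in size. The Z ratio is the difference between group means divided by the SD of that difference over all 696 miRNAs. In limma over all 15 arrays, 2 of 178 tested miRNAs met these criteria (1.12%), and both were lower in Met. Of the 5 guide arms, 0 had an unadjusted p of 0.05 or less in Met against SD, and 1, miR-27b-3p, in each of the comparisons of CR.

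The difference for miR-23a-3p was 0.142 (95% interval -0.0961 to 0.380) and its Z ratio was 2.33. That for miR-27a-3p was 0.107 (-0.0821 to 0.295) with a Z ratio of 1.75. Those for miR-24-3p and miR-23b-3p were 0.0879 and 0.0786, with Z ratios of 1.44 and 1.29. miR-27b-3p differed by 0.0136 (-0.163 to 0.190), and its 2 probes went in opposite directions, with differences of 0.0344 and -0.00730. The limma adjusted p was 0.930 for each guide arm. The median difference was 0.0879 over the guide arms and 0.00838 over all tested miRNAs. The intervals and p-values of this fit pool the spread of all 3 diets, and the CR mice spread most widely. In a limma fit of Met and SD alone, the adjusted p ran from 0.443 for miR-23a-3p to 0.891 for miR-27b-3p.

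The pairwise comparison of z-scores named in the study's methods placed miR-23a-3p (adjusted p = 0.138) and miR-27a-3p (adjusted p = 0.284) past the criteria. These are the guide arms made by the a cluster only. miR-24-3p, made by both clusters, did not pass (adjusted p = 0.472), and neither did those of the b cluster. The direct tests of the paralogs in Met against SD, given below, did not pass either. The pairwise comparison was made on the same z-scores. It called 13 of 178 miRNAs (7.3%). Within slide 1, with 3 Met and 5 SD arrays, the differences were smaller for miR-23a-3p, at 0.0840 with an SE of 0.0703, and for miR-27a-3p, at 0.0446 with an SE of 0.0555. The limma adjusted p was 0.976 for both there.

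CR and SD were compared to ask the same of caloric restriction. All 5 guide arms had a lower mean z-score in CR, and none met the criteria, beside 31 of 178 tested miRNAs that did (17.4%). For 4 of them the 95% interval of the difference held 0, and the differences ran from -0.0897 for miR-23b-3p to -0.0410 for miR-23a-3p, with limma adjusted p from 0.453 to 0.807.

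miR-27b-3p was the exception, with a difference of -0.211 (SE 0.0830, 95% interval -0.387 to -0.0347). Its limma adjusted p was 0.0598 and its Z ratio of -1.27 was below the limit in size. Both of its probes were lower in CR, by -0.245 and -0.177, while those of miR-27a-3p differed by -0.0498 and -0.0435. CR mice 1 and 5 were within the SD range of miR-27b-3p and the other 3 were below it. The share of tested miRNAs with an unadjusted p of 0.05 or less, as miR-27b-3p had, was 41.6%.

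Between CR and Met, all 5 guide arms again had the lower mean in CR and none met the criteria, beside 37 of 178 tested miRNAs (20.8%). The difference for miR-27b-3p was -0.225 (SE 0.0830, limma adjusted p = 0.0489) with a Z ratio of -1.45. An adjusted p of 0.05 or less was given to 34.3% of tested miRNAs. The other differences ran from -0.183 for miR-23a-3p to -0.147 for miR-24-3p, with limma adjusted p from 0.144 to 0.222.

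Single mice decided whether these limits were passed. miR-27b-3p met all criteria in CR against Met without CR mouse 1 (Z ratio -1.54, beside 21.9% of tested miRNAs that met them), without CR mouse 2 (-1.51, beside 16.9%) and without Met mouse 2 (-1.55, beside 20%), and miR-23a-3p did so without CR mouse 5 (-1.59, beside 23.6%). In CR against SD, the difference turned positive without CR mouse 3 for miR-23a-3p, miR-24-3p and miR-27a-3p, with Z ratios of 0.105, 0.0540 and 0.0559, and without CR mouse 2 for miR-23a-3p (0.115). The adjusted p was at least 0.920 in these 4 cases.

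The direction of both CR comparisons depended on how arrays were scaled. With arrays scaled to the 75th percentile of probes detected on all arrays, all 5 guide arms were higher in CR than in SD and than in Met. With that scaling the median of all tested miRNAs was itself higher in CR, by 0.37 on the log2 scale against SD and 0.30 against Met. The median of the guide arms was higher by 0.25 and 0.10, less than that of all tested miRNAs, which was not so under quantile normalization (below). There 120 of 178 miRNAs met the criteria against SD (67.4%), 110 of them higher in CR, and miR-27a-3p was among them (Z ratio 1.65, adjusted p = 0.0112). In the main z-scores, 5 of the 31 miRNAs that met the criteria were higher in CR.

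Under quantile normalization, 4 guide arms were higher in CR than in SD and 3 higher than in Met, and miR-24-3p met the criteria against SD (Z ratio 1.69, adjusted p = 0.0178), beside 41 of 178 miRNAs (23%). There the median difference of the guide arms was above that of all tested miRNAs. It was 0.208 beside 0.0415 in CR minus SD, and 0.0636 beside 0.0267 in CR minus Met. The z-scores over detected miRNAs gave 4 guide arms higher and 1 lower against SD, and 0 higher against Met. Under normexp background correction, centering without division by the SD and the 75th percentile of all probes, 5 of 5 were lower in CR in both comparisons. For miR-27b-3p, the criteria were met in CR against Met under normexp (Z ratio -1.56, adjusted p = 0.0447), centering only (-1.51, adjusted p = 0.0576), the 75th percentile of all probes (-1.70, adjusted p = 0.0863) and its brightest probe alone (-1.63, adjusted p = 0.0521), where 23.6%, 18%, 17.4% and 20.8% of tested miRNAs met them. Against SD they were met under the 75th percentile of all probes (-1.54, adjusted p = 0.0675, beside 18%). The guide arm that was lower in CR than in SD under quantile normalization and under z-scores over detected miRNAs was miR-27b-3p.

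In Met against SD, 5 of 5 guide arms were higher under the main z-scores, normexp, quantile normalization, z-scores over detected miRNAs and the 75th percentile of detected probes. Under the 75th percentile of all probes, centering only and the scanner software's total gene signal, scaled to the 75th percentile of detected miRNAs, 4 were higher and miR-27b-3p was lower.

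**Figure D2:**
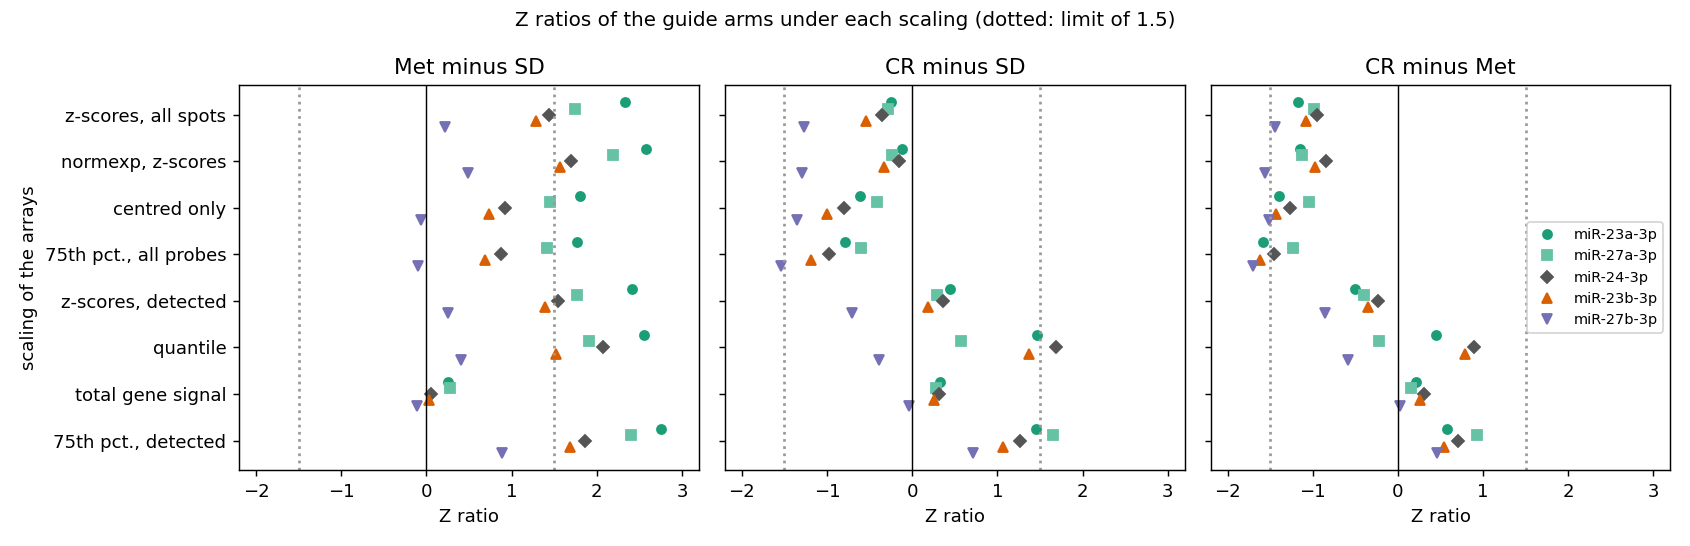
Z ratios (x axis) of the 5 guide arms in Met minus SD, CR minus SD and CR minus Met, under the main z-scores and 7 other scalings of the arrays (y axis). Dotted lines mark the limit of 1.5. In both CR panels the points change sides of 0 between scalings, from 5 of 5 lower in CR under the main z-scores to 5 of 5 higher under the 75th percentile of detected probes.

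Before any scaling, the total gene signal, which is background-subtracted and on a linear scale, was lower and more spread in CR. Summed over the 5 guide arms, it was 1431 to 1945 in SD with a median of 1459, 819 to 2039 in CR with a median of 1200, and 1671 to 2091 in Met with a median of 1761. For miR-27b-3p it was 231 ± 38.8 in SD, 161 ± 63.3 in CR and 243 ± 25 in Met (SD, n = 5). For miR-27a-3p it was 155 ± 21.3 in SD, 138 ± 63.9 in CR and 189 ± 27.4 in Met (SD, n = 5). The SD of the log signal over all spots was also lower on CR arrays, 0.646 to 0.759 against 0.730 to 0.800 in SD and 0.727 to 0.767 in Met. The part of this spread in the guide-arm values was not tested.

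With slide as a block, no guide arm met the criteria in any comparison. The Z ratios in CR against SD were then -1.03 for miR-23a-3p, -0.73 for miR-23b-3p, -0.95 for miR-24-3p, -1.12 for miR-27a-3p and -1.30 for miR-27b-3p. In that fit 17 of 178 miRNAs met the criteria (9.55%), and SD and CR were linked only through the Met arrays. Within slide 2, with 5 CR and 2 Met arrays, the differences of CR against Met ran from -0.269 for miR-23a-3p to -0.193 for miR-23b-3p, with limma adjusted p from 0.271 to 0.40.

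The a and b paralogs were then set against each other within each array, which asks whether the clusters moved unequally with diet. A difference within an array, on a log scale, does not depend on a factor common to the signal of all its spots, apart from the division by the SD. It does depend on background added to the spots, which was not subtracted from the main values. The SD-fed mice had the larger miR-27b-3p minus miR-27a-3p difference and the CR mice the smaller. In SD mice 1 to 5 it was 0.195, 0.198, 0.301, 0.279 and 0.245. In CR mice it was 0.141, 0.130, 0.0557, 0.128 and -0.0581, so the SD and CR groups did not overlap. In Met mice 1 to 3, on slide 1, it was 0.204, 0.153 and 0.253, and in Met mice 4 and 5, on slide 2, it was 0.000278 and 0.142.

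The mean was 0.244 ± 0.0473 in SD, 0.0791 ± 0.0838 in CR and 0.151 ± 0.0950 in Met (SD, n = 5). CR minus SD was -0.164 (SE 0.0430), with a two-sided exact permutation p of 0.00794, the smallest that 5 mice against 5 allow, and 0.0476 after Benjamini-Hochberg adjustment over the 6 paralog tests. On the log2 scale the same difference was -0.19 from spot signals, and -0.32 from the background-subtracted total gene signals, with an adjusted exact p of 0.0476 for both. Under quantile normalization the difference was -0.147 and did not pass, with an adjusted exact p of 0.0714. A lack of overlap between SD and CR was common, however, since it was found in 15.9% of all 15753 pairs of tested miRNAs. Leaving out CR mice 2 and 3, the arrays with the fewest detected miRNAs in CR, gave -0.173 with an adjusted exact p of 0.107. Before adjustment this p was 0.0179, the smallest that 3 mice against 5 allow, so the larger adjusted value does not show a smaller difference.

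Slide moved with this difference as well as diet. The 2 Met arrays on slide 2 averaged 0.0711 and the 3 on slide 1 averaged 0.204, a difference of -0.132 with an exact p of 0.1, the smallest that 2 against 3 allow. Within slide 2, CR and Met differed by 0.00801 (exact p = 1.0 for 5 mice against 2). Within slide 1, Met and SD differed by -0.0400 (exact p = 0.304 for 3 mice against 5). Diet and slide cannot be told apart between CR and SD here.

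Over both slides, Met minus SD was -0.0930 (SE 0.0475, exact p = 0.0873, adjusted 0.238) and CR minus Met was -0.0714 (SE 0.0567, exact p = 0.238, adjusted 0.357). Neither passed the threshold of 0.05.

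The miR-23b-3p minus miR-23a-3p difference did not separate the diets. It was 0.317 ± 0.0403 in SD, 0.269 ± 0.140 in CR and 0.254 ± 0.0772 in Met (SD, n = 5). The CR values ran from 0.0371 in mouse 5 to 0.403 in mouse 2, on both sides of all SD values. The exact permutation p was 0.603 for CR minus SD (-0.0487, SE 0.0649), 0.119 for Met minus SD (-0.0631, SE 0.0390) and 0.810 for CR minus Met (0.0144, SE 0.0713), with adjusted values of 0.724, 0.238 and 0.810. The 2 Met arrays of slide 2 were lower than the 3 of slide 1 here too, by 0.103 (difference -0.103, exact p = 0.1). Within slide 1, Met minus SD was -0.0218 (exact p = 0.464), and within slide 2, CR minus Met was 0.0765 (exact p = 0.619).

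**Figure D3:**
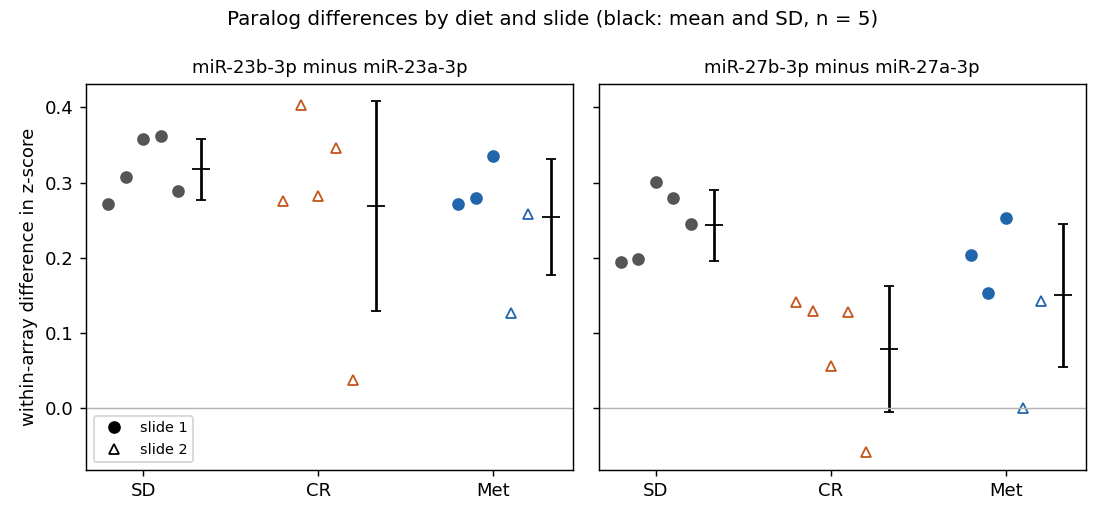
Within-array difference in z-score (y axis) of miR-23b-3p minus miR-23a-3p and miR-27b-3p minus miR-27a-3p, with 1 point per mouse, by diet (x axis), and the mean and SD of 5 mice in black. Filled circles are arrays of slide 1 and open triangles arrays of slide 2. For miR-27b-3p minus miR-27a-3p the CR points, up to 0.141, lie below all SD points, which start at 0.195, and a Met point of slide 2 is at 0.000278.

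From mouse to mouse, correlations were higher between the guide arms of 1 cluster than between the a and b paralogs. After the mean of each diet was subtracted, the 2 highest Pearson correlations over the 15 arrays, out of 10 pairs, were those within a cluster. They were 0.983 for miR-23b-3p with miR-27b-3p (Spearman rho 0.936) and 0.982 for miR-23a-3p with miR-27a-3p (rho 0.957). The paralogs correlated with r = 0.871 for miR-23a-3p with miR-23b-3p (rho 0.904) and r = 0.835 for miR-27a-3p with miR-27b-3p (rho 0.757). miR-24-3p, encoded by both clusters, had r from 0.926 to 0.960 with the other 4 (rho 0.871 to 0.961). By rho, the highest pair was miR-24-3p with miR-23b-3p, at 0.961. miR-24-3p with miR-23a-3p, at 0.943, was also above miR-23b-3p with miR-27b-3p.

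All 10 relations had a permutation p of 0.00035 or less for Pearson's r and 0.00178 or less for Spearman's rho, and the highest Benjamini-Hochberg values over the 10 pairs were 0.00035 and 0.00178. The difference between the correlations was not tested. The points share the z-score scale of each array, and over all 15753 pairs of tested miRNAs the median r was 0.0553, with quartiles of -0.327 and 0.474.

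The order held with fewer arrays. Without the 2 arrays farthest from the median, r was 0.974 for miR-23b-3p with miR-27b-3p and 0.964 for miR-23a-3p with miR-27a-3p, and 0.826 and 0.740 for the paralog pairs of miR-23 and miR-27. In SD and Met mice alone, the within-cluster values were 0.958 and 0.954, and those of the paralogs were 0.747 and 0.569. With the means of each diet and slide subtracted, r within slide 1 was 0.974 and 0.963 within clusters, beside 0.897 and 0.819 between paralogs. Within slide 2 it was 0.990 and 0.989, beside 0.896 and 0.893.

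The within-cluster values were above those of both paralog pairs under 7 of 8 scalings, all but quantile normalization. Under the 75th percentile of detected probes, r was 0.931 for miR-23b-3p with miR-27b-3p and 0.775 for miR-23a-3p with miR-27a-3p, against 0.516 and 0.665 for the miR-23 and miR-27 paralogs. Under the scaled total gene signal, miR-23b-3p with miR-27b-3p had 0.484 and miR-23a-3p with miR-27a-3p 0.917. The miR-23 and miR-27 paralogs had 0.184 and 0.294 there. Under quantile normalization, the pair miR-23b-3p and miR-27b-3p fell to 0.432, which was below the 0.444 of the miR-27 paralogs. The pair miR-23a-3p and miR-27a-3p had 0.757 there, below the highest of the 10 pairs at 0.901. The lowest of the 10 pairs was 0.805 under the main z-scores, 0.0891 under the scaled total gene signal and 0.0434 under quantile normalization.

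**Figure D4:**
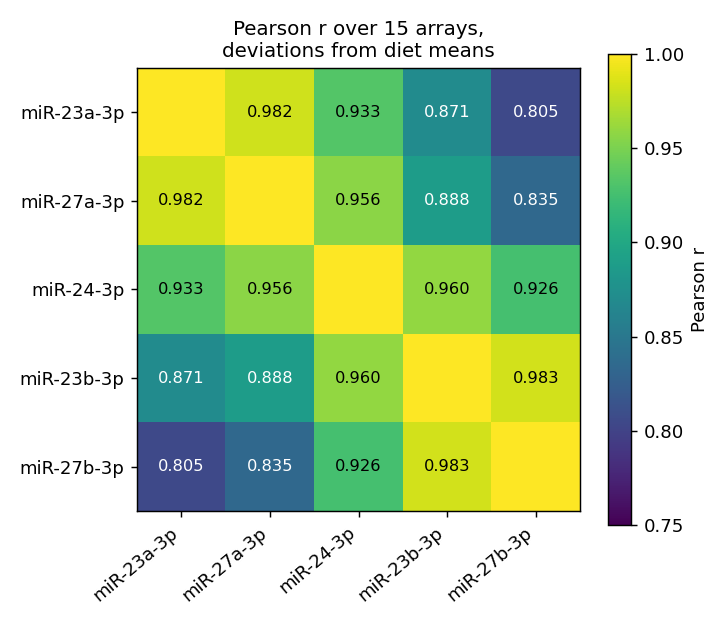
Pearson correlation (color and number) between the 5 guide arms over 15 arrays, each value taken as the deviation from the mean of its diet. The within-cluster pairs are at 0.982 and 0.983 and the miR-27 paralogs at 0.835.

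The miRNAs outside the clusters with the most similar profile over the 15 arrays were found from the z-scores without removal of the diet means. For miR-27b-3p they were miR-20b-5p (r = 0.971) and miR-20a-5p (r = 0.968), and for miR-23b-3p they were miR-99a-5p (r = 0.965) and miR-10a-5p (r = 0.947). For the a cluster, they were let-7i-5p (r = 0.912) and miR-195a-5p (r = 0.898) with miR-23a-3p, and miR-195a-5p (r = 0.918) and miR-130a-3p (r = 0.911) with miR-27a-3p. miR-24-3p was most like let-7i-5p (r = 0.959) and miR-26a-5p (r = 0.938). These correlations are descriptions chosen as the highest of the tested miRNAs. With the diet means subtracted, they ran from 0.907 (let-7i-5p with miR-23a-3p) to 0.958 (miR-99a-5p with miR-23b-3p). That was above both paralog pairs, at 0.871 and 0.835, so high correlations with these guide arms were not particular to the clusters. Of these miRNAs, miR-20a-5p met the criteria on the main values, as lower in CR than in SD (-0.253, SE 0.0881, limma adjusted p = 0.0432) and than in Met (-0.277, SE 0.0881, limma adjusted p = 0.0274). Its direction turned in both under the 75th percentile of detected probes, and it met the criteria under 3 and 5 of 8 scalings. miR-130a-3p met them as lower in CR than in Met (-0.279, SE 0.110, limma adjusted p = 0.0617), which turned under quantile normalization and the scaled total gene signal.

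Among 18 listed miRNAs of liver lipid metabolism, 13 were tested. The mean was lower in CR than in SD for 10 and higher for 3. The criteria were met by 3 as lower in CR and by 0 as higher, beside 14.6% of all tested miRNAs that met them as lower. Those that met them were miR-21a-5p (-1.34, SE 0.373, limma adjusted p = 0.0191), miR-148a-3p (-0.813, SE 0.230, limma adjusted p = 0.0196), and miR-30c-5p, which represses Mttp (-0.347, SE 0.153, limma adjusted p = 0.0959). In CR against Met, the mean was lower in CR for 11 and higher for 2. There 16.3% of all tested miRNAs met the criteria as lower. Of the list 4 did so, the same 3 and miR-34a-5p, which represses Sirt1 (-0.264, SE 0.0612, limma adjusted p = 0.0142). In Met against SD, 0 met the criteria. The median difference of the list in CR minus SD was -0.0776, beside -0.0594 for the guide arms and -0.0161 for all tested miRNAs. In CR minus Met these medians were -0.155, -0.168 and -0.0292. In both comparisons the means of miR-21a-5p, miR-148a-3p and miR-30c-5p were below under 8 of 8 scalings, and that of miR-34a-5p under 7 of 8, all but the 75th percentile of detected probes. The criteria were met under 7 of 8 scalings in both comparisons by miR-21a-5p and miR-148a-3p, under 4 and 5 of 8 by miR-30c-5p, and under 0 and 5 of 8 by miR-34a-5p, in CR against SD and against Met.

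Marker miRNAs of the liver's cell types were measured beside the clusters, since the clusters are not made by hepatocytes alone. Of the hepatocyte markers, 4 of 5 were on the array. miR-192-5p, miR-148a-3p and miR-194-5p met the criteria as lower in CR than in SD and than in Met. Beside them, 14.6% and 16.3% of all tested miRNAs did so. Their differences from SD were -0.887, -0.813 and -0.508 (limma adjusted p = 0.0257, 0.0196 and 0.0440). Those from Met were -0.978, -0.806 and -0.596 (limma adjusted p = 0.0258, 0.0262 and 0.0262). miR-122-5p, with differences of 0.217 and -0.0343, did not meet the criteria (limma adjusted p = 0.155 and 0.806). The means of the first 3 were below under 8 of 8 scalings, and the criteria were met under 7 of 8 in both comparisons, apart from 5 of 8 for miR-194-5p against SD. The total gene signal summed over all 4 hepatocyte markers on the array, miR-122-5p among them, was 19340 to 30430 in SD, 10570 to 28180 in CR and 25230 to 30600 in Met. Both endothelial markers were tested, and miR-126-3p was lower in CR than in Met (-0.423, SE 0.184, limma adjusted p = 0.0852), a call that held under 4 of 8 scalings. Their summed signal was 620 to 886 in SD, 216 to 839 in CR and 665 to 877 in Met.

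The mesenchymal and stellate markers, 5 of 5 tested, and the leukocyte and Kupffer markers, 4 of 6 tested, had 0 that met the criteria in any comparison. The summed signal of the first was 171 to 229 in SD, 60.7 to 337 in CR and 178 to 251 in Met, and that of the second 131 to 246, 28.4 to 213 and 136 to 347. miR-142-5p was not detected on any CR array. Of the erythroid markers, 2 of 4 were on the array and miR-451a was the one tested, and it did not meet the criteria. Their summed signal was 265 to 726 in SD, 33.9 to 788 in CR and 291 to 621 in Met. The part of cell-type makeup in the guide-arm values was not tested.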

How the data were processed

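miRNA profiles of 15 mouse livers (5 SD, 5 CR, 5 Met) were measured with 1-color Agilent Mouse miRNA Microarrays, Release 15.0, labeled with Cy3. The authors deposited scanner output from Feature Extraction 11.5.1.1, with linear spot and background intensity and flags, not normalized between arrays. They also deposited a score per spot, which matched a z-score of ln median spot signal to within 0.0005. Its mean and SD were taken over the 14635 spots of the array, controls among them, without background subtraction. The z-scores were recomputed from the scanner output, outlier spots were left out, and spots, then probes, were averaged. No miRNA spot was saturated. Tested were 178 of 696 miRNAs, those detected in every mouse of some group.

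limma 3.58.1 in R 4.3.3 was fitted once over 15 arrays, with a variance trend and Benjamini-Hochberg adjustment over 178 miRNAs. The limits on p, adjusted p and Z ratio were those of the study's methods, which used pairwise comparisons of z-scores in place of limma. Paralog differences were tested by two-sided exact permutation over 252 splits, and correlations by 100000 permutations. The fit was tested on simulated data first. Other steps ran in Python 3.11.15 with scipy 1.17.1.

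The labels number the mice but say nothing of pairs, and each p rests on the spread between separate mice. In limma that spread is pooled over the diets of the fit and drawn toward a trend over all tested miRNAs. The number of arrays limits the precision. Mature sequences and coordinates are from RefSeq on GRCm38.p6 and are not those of the array's own annotation.

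Named were all members, the 2 most similar tested miRNAs of each guide arm, and, of each list, up to 3 miRNAs that met the criteria (miR-34a-5p of the lipid list was added after its value was seen). The members and lists were chosen with earlier results of these data known. Alternatives were 7 other scalings or signals, the deposited table, outlier spots kept, the brightest probe, no filter, the study's pairwise comparison, an adjusted p of 0.05, fits of 2 groups, slide or replicate number as a block, single slides, and each mouse left out.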

Additional observations from a re-analysis of the deposited data

How the results depend on the processing

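None of the guide arms met the criteria with the main values, and most alternatives left it so. For the Z ratios of the 5 guide arms in 3 comparisons, 450 of 505 values kept direction and call and 44 changed direction. Many of the 505 could not change direction. A Z ratio stays the same when a mouse of the third group is left out, or when only the filter, the limit or the test differs. The share that kept direction is therefore not a measure of robustness. The criteria were passed by 13 of the 505, of which 11 kept the direction and 2 changed it. For the paralog differences, 154 kept both, 9 changed direction and 3 lost the call. The number of arrays limits the precision, and the cause of these changes was not tested.

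Scaling turned CR minus SD. Under the 75th percentile of detected probes, the Z ratios were 1.46 for miR-23a-3p, 1.06 for miR-23b-3p, 1.27 for miR-24-3p, 1.65 for miR-27a-3p and 0.71 for miR-27b-3p, and in CR minus Met they were 0.57, 0.54, 0.71, 0.93 and 0.46. The limma adjusted p in CR minus SD was 0.012, 0.024, 0.013, 0.011 and 0.10 in the same order. Quantile normalization gave 1.47, 1.37, 1.69 and 0.58 for the first 4 in CR minus SD, and 0.45, 0.79 and 0.89 for the first 3 in CR minus Met. The z-scores over detected miRNAs gave 0.44, 0.19, 0.36 and 0.29 for the first 4 in CR minus SD. The total gene signal, scaled to the 75th percentile of detected miRNAs, gave 0.33, 0.26, 0.31 and 0.28 for them, and in CR minus Met 0.21, 0.26, 0.30, 0.15 and 0.0187 for all 5. The SD that divides these Z ratios was large there, 0.987 in CR minus SD. On the log2 scale the 4 differences in CR minus SD were 0.326, 0.257, 0.310 and 0.280. Their limma adjusted p was 0.016, 0.013, 0.0083 and 0.037. The median difference of all tested miRNAs there was 0.279. In CR minus Met the limma adjusted p of the 5 was 0.094, 0.015, 0.0071, 0.25 and 0.85. miR-27b-3p in Met minus SD turned to -0.10 under the 75th percentile of all probes, -0.0605 under centering and -0.11 under the total gene signal.

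The 2 that passed in the other direction, higher in CR than SD, were miR-27a-3p under the 75th percentile of detected probes and miR-24-3p under quantile normalization. The criteria were also passed by miR-27b-3p in CR minus SD (-1.54) and CR minus Met (-1.70) under the 75th percentile of all probes, and in CR minus Met under centering (-1.51), normexp (-1.56) and its brightest probe (-1.63). The pairwise comparison of z-scores called miR-23a-3p (2.33) and miR-27a-3p (1.75) in Met minus SD.

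Without CR replicates 2 and 3, chosen after seeing the data, CR minus SD turned to 0.96 for miR-23a-3p, 0.11 for miR-23b-3p, 0.50 for miR-24-3p and 0.67 for miR-27a-3p. There the miR-23 paralog difference in CR minus Met was -0.0349, and the miR-27 one in CR minus SD was -0.173 (adjusted exact p = 0.107). Quantile normalization gave -0.147 for the latter (adjusted exact p = 0.0714). The miR-23 difference in CR minus Met was -0.00476 under both 75th percentiles and -0.00330 under centering, and the miR-27 one in CR minus Met was 0.00801 within slide 2.

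With each mouse left out, the Z ratios of miR-23a-3p ran from -0.76 to 0.12 in CR minus SD and from -1.59 to -0.93 in CR minus Met. In CR minus SD those of miR-24-3p ran from -0.66 to 0.0540 and those of miR-27a-3p from -0.65 to 0.0559. For miR-27b-3p they ran from -1.55 to -1.29 in CR minus Met and from -0.21 to 0.66 in Met minus SD, negative without SD mouse 1 and Met mice 3 and 5. The miR-23 paralog difference ran from -0.0822 to 0.00920 in CR minus SD, positive without CR mouse 5, and from -0.0191 to 0.0723 in CR minus Met, negative without CR mice 2 and 4 and Met mouse 4. The miR-27 difference in CR minus SD ran from -0.180 to -0.130, with an adjusted exact p of 0.0476 in each case. That p could not change, since SD and CR did not overlap and stay apart whichever mouse is left out. It is therefore not a measure of robustness.

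The count of all miRNAs that met the criteria in Met minus SD was 2 of 178. It was 0 under the 75th percentile of detected probes, z-scores over detected miRNAs, quantile normalization, the total gene signal, an adjusted p of 0.05, slide as a block and slide 1 alone, 1 without a filter, 4 in fits of 2 groups, 5 without CR replicates 2 and 3, and 13 by the pairwise comparison. Unadjusted limma p-values of 0.05 or less were found for 12 miRNAs on the main values. With each mouse left out it was 1 to 12, and 12 without SD mouse 5. In CR minus SD the count of 31 became 120, 20 and 17 under the 75th percentile of detected probes, the total gene signal and slide as a block. In CR minus Met the count of 37 became 116 and 16 under the first 2 of these, 12 within slide 2 and 17 without CR replicates 2 and 3.

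With replicate number as a block, the miR-27 paralog difference in CR minus SD was -0.164 with an adjusted exact p of 0.188, where the smallest unadjusted p allowed was 0.0625. No call of a guide arm and no other paralog call changed, and the counts of all miRNAs were 2, 32 and 37, against 2, 31 and 37. The numbers did not pair the mice, since same-numbered deviations correlated from -0.562 to 0.714 and 3 of 15 same-numbered comparisons were the best match.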
